A study of Mus musculus with 16 samples.

Results

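The olfactory receptors of mouse chromosomes 16 and 19 were followed through sorted fractions of olfactory mucosa. They comprised every measured gene on these chromosomes named Olfr with a number only, without Olfr15 and Olfr1440, which were left out by rule. That gave 95 receptors, 35 on chromosome 16 and 60 on chromosome 19, of 1080 measured receptors and 19572 tested features in all. All measured genes that met the rule are described, whatever their values. In the order of the RefSeq gene table of assembly GRCm38.p6, where receptors with starts under 1 Mb apart form a cluster, they lie in 5 clusters. Olfr161 and Olfr19 stand alone, Olfr164 to Olfr171 are 8 neighbours, Olfr172 to Olfr209 are 25 neighbours, and the 60 receptors of chromosome 19 form 1 cluster from Olfr1417 to Olfr1505.

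Gene expression was measured on 16 Clariom S arrays, 1-colour Affymetrix arrays with 1 summarised log2 signal per gene. C57BL/6 mice of both sexes, 7 to 12 weeks old, all carried the S100a5-tauGFP reporter, in which the regulatory region of S100a5, a gene that olfactory sensory neurons switch on when they are active, drives a fluorescent protein. They were kept singly for 40 h in clean air at 3.1 L per min, and from 26 h on received 10 s pulses every 20 min. The 12 mice of the odor group inhaled bourgeonal, which is an aromatic aldehyde, mixed with the fatty aldehyde undecanal, and the 12 of the vehicle group filtered air. Mucosa of 3 mice was pooled, dissociated and sorted by fluorescence, so that each of the 8 pools gave both a GFP- and a GFP+ fraction, with 4 arrays in each of 4 groups. The groups were thus vehicle titled GFP-, vehicle titled GFP+, odor titled GFP- and odor titled GFP+.

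An odorant receptor is a G protein-coupled receptor in the cilia of an olfactory sensory neuron. A mature neuron expresses as a rule 1 allele of 1 receptor gene, and binding of an odorant opens cyclic nucleotide-gated channels through a G protein and adenylyl cyclase. The receptor message of a sorted fraction therefore carries the identity of its neurons. Fewer neurons of a type and less receptor RNA per neuron cannot be told apart in these arrays. Receptors are grouped here by the MOR subfamilies in RefSeq's synonyms, which follow sequence similarity. Signals of different probe sets are not set against each other, because each array feature has its own response.

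The labels of the fractions disagreed. On all 16 samples the GFP status in the title was the opposite of that in the cell type characteristic. The titles were kept, so directions below read "titled GFP-" and "titled GFP+", and every fraction difference is titled GFP- minus titled GFP+. S100a5 itself was higher in the arrays titled GFP-, at 16.29 to 16.46 in vehicle and 16.46 to 17.08 in odor pools, than in those titled GFP+, at 15.22 to 15.51 and 14.65 to 15.75. With the characteristic in place of the title, every fraction direction below would turn.

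The promoters of 4 members are shown first, 2 from each direction of the fraction comparisons described below. The 2 lowest and the 2 highest vehicle fraction differences were taken among the 10 members whose RefSeq model spans over 2000 bases and that passed the test in the same direction in both fraction comparisons. A long model makes it likelier that the annotated start is a transcription start and not a coding start. Each sequence runs 5′ to 3′ from 250 bases before to 30 bases after the RefSeq start, in GRCm38.p6. Capitals mark TAATTA, a homeodomain-type motif, or CCCNNGGG, a motif of the Ebf (O/E) type, both searched on both strands. Olfr1437 and Olfr1434 were lower in titled GFP-, Olfr187 and Olfr1443 higher.
Olfr1437, chr19:12325037-12325316, minus strand: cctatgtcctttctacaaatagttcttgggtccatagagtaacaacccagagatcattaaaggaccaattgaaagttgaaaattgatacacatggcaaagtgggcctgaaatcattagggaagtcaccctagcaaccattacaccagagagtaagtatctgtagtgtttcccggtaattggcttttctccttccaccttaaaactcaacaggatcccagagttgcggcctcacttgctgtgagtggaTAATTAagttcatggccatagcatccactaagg
Olfr1434, chr19:12279604-12279883, plus strand: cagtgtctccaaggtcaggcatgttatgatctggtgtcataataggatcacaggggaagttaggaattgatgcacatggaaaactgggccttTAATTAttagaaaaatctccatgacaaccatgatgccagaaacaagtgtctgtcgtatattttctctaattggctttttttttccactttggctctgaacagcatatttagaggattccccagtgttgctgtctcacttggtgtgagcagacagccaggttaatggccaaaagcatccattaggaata
Olfr187, chr16:59039720-59039999, minus strand: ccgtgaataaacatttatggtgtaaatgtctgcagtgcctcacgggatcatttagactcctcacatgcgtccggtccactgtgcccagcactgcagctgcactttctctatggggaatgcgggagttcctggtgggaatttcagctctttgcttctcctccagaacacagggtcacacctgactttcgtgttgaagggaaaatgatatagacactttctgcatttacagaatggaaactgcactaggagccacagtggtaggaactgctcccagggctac
Olfr1443, chr19:12677916-12678195, plus strand: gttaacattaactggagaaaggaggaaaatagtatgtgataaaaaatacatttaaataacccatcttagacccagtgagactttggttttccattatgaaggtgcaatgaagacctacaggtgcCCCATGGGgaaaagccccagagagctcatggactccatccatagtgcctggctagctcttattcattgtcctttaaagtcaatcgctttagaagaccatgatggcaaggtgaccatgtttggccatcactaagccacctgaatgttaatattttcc
Olfr1437 and Olfr1434, which both belong to MOR214, matched at 190 of 261 aligned bases, or 72.8%. The other pairs of these 4 promoters matched at 52.3% to 58.3%. TAATTA occurred in 3 of the 10 promoters examined, against 18.6% of 944 receptor promoters and 5.09% of 32851 promoters of all genes. Besides Olfr1437 and Olfr1434 it lay in the promoter of Olfr196, which was higher in titled GFP-, by 1.34 in vehicle pools. The promoters of the other lower members examined, Olfr180, Olfr1477, Olfr1426 and Olfr1428, held none. CCCNNGGG occurred in 1 of the 10, against 2.97% of receptor promoters and 13.0% of all promoters. The receptor and all-gene promoters were not limited to models over 2000 bases, unlike the 10 examined. These counts describe letters in a window and are not binding sites.

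The first question was which receptors differ between the 2 sorted fractions when the mice inhaled only filtered air. In vehicle pools 62 of the 95 receptors passed the test, 40 higher and 22 lower in titled GFP- (limma moderated test, Benjamini-Hochberg adjusted p under 0.05 over 19572 features). That is 65.3%, against 16.9% of all tested features and 52.8% of the 985 other receptors. Among all tested features 7.05% were higher and 9.82% lower, and among the other receptors 32.5% and 20.3%. The members' differences ran from -7.34 to 3.52 log2 units with a median of 0.56, where the median of the other receptors was 0.42 and that of all tested features 0.13. The arrays of the 2 fractions did not overlap for 64 members, against 23.4% of all tested features.

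The fractions of the odor pools came from other arrays and other mice. There 65 members passed, 43 higher and 22 lower, which is 68.4% against 22.2% of all tested features and 55.3% of the other receptors. Of all tested features 12.2% were higher and 9.98% lower, and of the other receptors 36.9% and 18.5%. The median difference of the members was 0.65, that of the other receptors 0.57 and that of all tested features 0.14. The fractions did not overlap for 63 members, against 24.5% of all tested features. The vehicle and odor differences shared no array, but both tests used a spread per feature estimated from all 16 arrays. Of the members, 38 were higher in both, 22 lower in both, and 0 passed in opposite directions. How many of all tested features passed alike in both was not counted. Only in vehicle pools did Olfr172 and Olfr1459 pass, at adjusted p = 0.049 and 0.048 (limma), and both calls were lost when vehicle replicate 1, 2 or 3 was left out, among other alternatives, with highest adjusted p of 0.21 and 0.37. Only in odor pools did 5 members pass, Olfr175, Olfr181, Olfr209, Olfr1418 and Olfr1444, and 28 passed in neither. Among these 5, Olfr1444 lost its call without odor replicate 2, 3 or 4 and when only the compared groups were fitted, Olfr175 without odor replicate 3 and with arrays centred on receptors, and Olfr209 and Olfr1418 with that centring, with highest adjusted p of 0.11, 0.074, 0.089 and 0.098 (limma). Across the 95 members the 2 sets of differences correlated at r = 0.988, a description over genes that share arrays and are not replicates. In 67 members the difference had 1 direction in all 8 pools, 44 with titled GFP- higher and 23 with titled GFP+ higher. The same count was not made over all tested features, so it describes the members only.

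**Figure D1:**
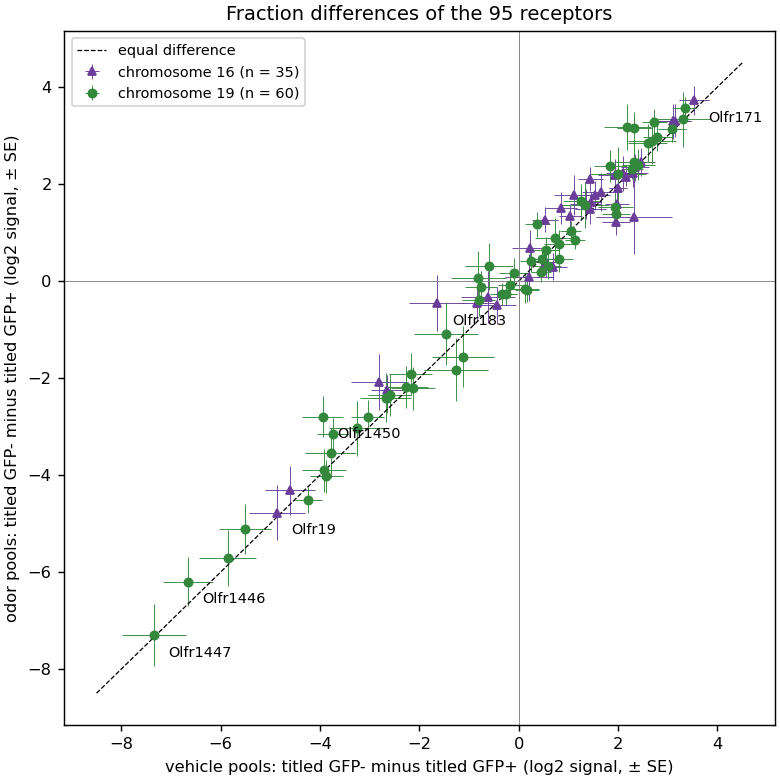
Fraction difference of each receptor (titled GFP- minus titled GFP+, log2 signal) in vehicle pools (x axis) and odor pools (y axis), with SE bars from the fit; triangles are chromosome 16 (35 receptors), circles chromosome 19 (60), and the dashed line marks equal differences. The 22 receptors lower in both comparisons lie at the lower left, down to Olfr1447 at -7.34 and -7.30, and the 38 higher in both at the upper right, up to Olfr171 at 3.52 and 3.73.

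For some members only 1 fraction was measured above background. Background was taken as the 95th percentile of 23 probe sets graded by GC content, 6.87 to 7.41 over the arrays. Of the 22 members lower in vehicle pools, 10 were above background on none of the 4 arrays titled GFP-, and of the 40 higher, 6 were on none of those titled GFP+. In odor pools this held for 13 of 22 and 8 of 43. These counts include members above background in neither fraction, 1 lower in vehicle pools, and 1 lower and 1 higher in odor pools. For such members the fitted difference depends on signals below background, and a fold is given as a lower bound, where it exceeds 1. These bounds hold for this background level only, which was chosen after the data were seen. Over the 16 arrays, 9 of the 95 members were never above background, 8 of them on chromosome 19, and 40 were above it on every array. Of the 985 other receptors 106 never were and 418 always were.

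Other cells than mature neurons moved with the fractions. All 9 measured neutrophil markers and all 9 measured markers of other leukocytes were lower in titled GFP- in both comparisons. The mean level of the neutrophil list was 5.07 to 6.20 on arrays titled GFP- and 13.53 to 15.55 on arrays titled GFP+, and 9 of its 9 genes were above background on no vehicle array titled GFP-, 8 on no odor array. For other leukocytes the ranges were 5.34 to 6.34 and 10.04 to 12.07. Immature neuron markers were lower for 4 of 8, all 4 measured cell cycle genes were lower, and sustentacular cell markers were lower for 4 of 6 in vehicle and 5 of 6 in odor pools. Of 11 mature neuron genes, 1 was higher in titled GFP- in vehicle pools and 3 in odor pools, and 0 were lower. On the deposited scale the list's mean level in vehicle pools was 16.21 to 16.30 in titled GFP- and 15.99 to 16.09 in titled GFP+. In odor pools the ranges were 16.17 to 16.32 and 15.85 to 16.20. Omp, which belongs to that list, read 18.31 to 18.68 on every array. The part of these cells in the receptor differences was not tested.

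On chromosome 16, 20 of 35 receptors were higher and 4 lower in vehicle pools, with a median of 1.44, and in odor pools 22 were higher and 4 lower, with a median of 1.50. On chromosome 19, 20 of 60 were higher and 18 lower, with a median of 0.14, and in odor pools 21 and 18, with a median of 0.18. The chromosome 19 medians turned to -0.13 and -0.29 when each array was centred on its receptor median, while no member that passed reversed its call under any scaling. The balance of the 2 chromosomes was not tested.

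**Figure D2:**
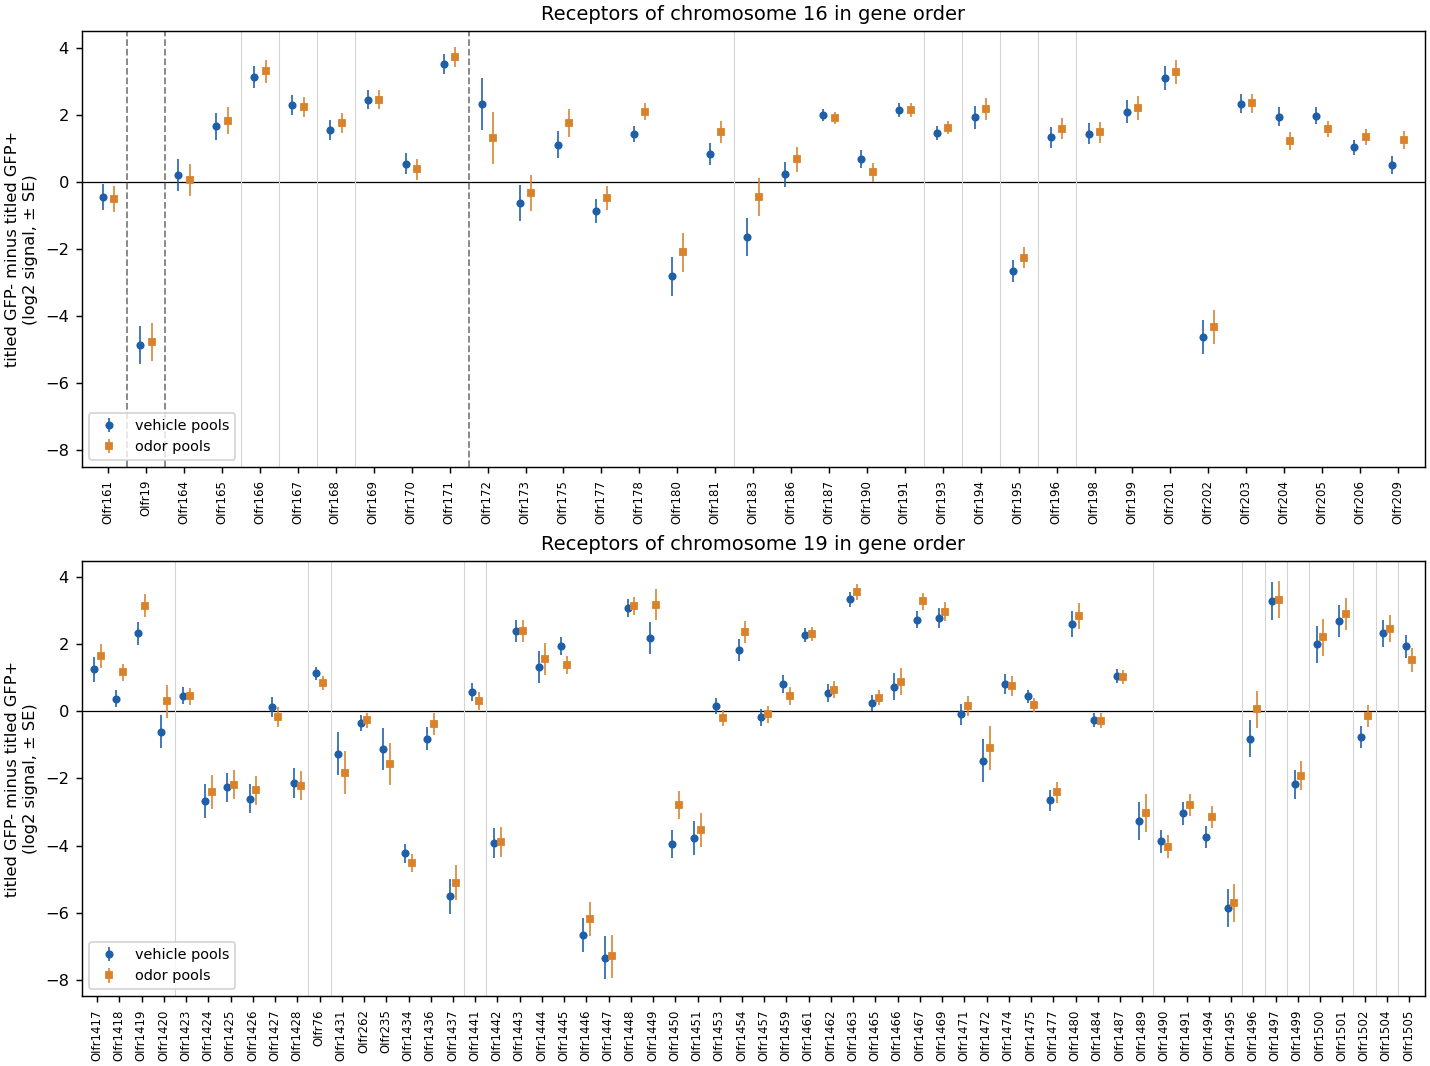
Fraction difference (titled GFP- minus titled GFP+, log2 signal, y axis, with SE bars) of the 95 receptors in their order along chromosome 16 (upper panel) and chromosome 19 (lower panel), in vehicle (circles) and odor pools (squares); grey lines separate subfamilies and dashed lines clusters. Chromosome 16 lies mostly above 0 with single low receptors such as Olfr202, and chromosome 19 holds stretches of each direction, with the 4 receptors from Olfr1490 to Olfr1495 all at fitted differences of -2.80 or lower.

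The 8 neighbours Olfr164 to Olfr171 on chromosome 16, of subfamilies MOR270 to MOR273 and MOR279, held 6 receptors higher in titled GFP- and none lower, in both comparisons. Olfr171, of MOR273, had the largest positive difference. Its signals in vehicle pools were 13.21, 14.16, 13.94 and 12.77 in titled GFP- and 9.69, 10.24, 10.20 and 9.86 in titled GFP+. In odor pools they were 13.27, 13.05, 13.39 and 13.25 against 9.34, 9.31, 8.99 and 10.40. The fractions were far apart in every pool, by 3.52 ± 0.30 (SE, adjusted p = 3.1e-07, limma) and 3.73 ± 0.30 (adjusted p = 1.6e-07). Olfr166, the only member of MOR270, read 16.23, 16.08, 16.19 and 15.42 against 12.54, 13.06, 13.13 and 12.66 in vehicle pools. The odor pools gave 15.55, 15.39, 15.76 and 15.59 against 11.16, 12.29, 12.14 and 13.47. Here too the groups did not overlap, with differences of 3.14 ± 0.34 and 3.30 ± 0.34 (adjusted p = 4.2e-06 and 2.4e-06, limma).

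Over the 16 arrays Olfr166 had a mean signal of 14.17, Olfr168 of 13.84 and Olfr169 of 13.77. Olfr168 was higher in titled GFP- by 1.54 ± 0.30 in vehicle and 1.77 ± 0.30 in odor pools, and Olfr169 by 2.46 ± 0.28 and 2.45 ± 0.28. Olfr170, which lies between Olfr169 and Olfr171 and shares their subfamily, did not pass: its differences were 0.55 ± 0.31 and 0.38 ± 0.31 (adjusted p = 0.25 and 0.40, limma), and its groups overlapped in both comparisons. Olfr164 did not pass either, at 0.20 ± 0.48 and 0.08 ± 0.48. Olfr165 was higher by 1.66 ± 0.40 in vehicle pools (adjusted p = 0.0072, limma), but without vehicle replicate 1 or with arrays centred on the receptor median it no longer passed, with a highest adjusted p of 0.073.

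The cluster from Olfr172 to Olfr209 holds MOR182, MOR183 and MOR184, with Olfr193 listed under 2 subfamilies, and the balance of these was not compared by a test. In MOR182, 8 of 10 receptors were higher and 1 lower in vehicle pools, and 9 higher and 1 lower in odor pools, with medians of 1.94 and 1.54. With arrays centred on the receptor median, 3 of these odor calls were lost, those of Olfr198, Olfr204 and Olfr209 (adjusted p = 0.073, 0.17 and 0.089, limma). In MOR183, 3 of 6 were higher and none lower in each. In MOR184, 2 of 8 were higher and 2 lower in vehicle pools, and 3 and 2 in odor pools, and its vehicle median of 0.11 was -0.16 once each array was centred on its receptors. In MOR183, Olfr187 read 10.22, 9.68, 10.12 and 9.89 in vehicle titled GFP- against 8.35, 7.78, 7.99 and 7.81, and 9.65, 9.90, 9.44 and 9.70 in odor titled GFP- against 7.69, 8.26, 7.48 and 7.61. Its fractions did not overlap in either, with differences of 2.00 ± 0.19 and 1.91 ± 0.19, and Olfr191, with a mean signal of 13.48 over the 16 arrays, was higher by 2.15 ± 0.20 in both. Olfr193, listed under both MOR113 and MOR183, was higher by 1.46 ± 0.21 and 1.63 ± 0.21.

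Neighbours of MOR182 differed in direction. Olfr201 read 11.62, 11.85, 10.95 and 12.53 in vehicle titled GFP- against 8.18, 8.54, 8.72 and 9.06 in titled GFP+. Its odor pools read 12.10, 10.72, 11.39 and 12.11 against 8.08, 7.61, 8.61 and 8.83. It was thus higher in titled GFP- in all 8 pools, by 3.11 ± 0.36 and 3.29 ± 0.36 (adjusted p = 8.6e-06 and 4.8e-06, limma). Its neighbour Olfr202 ran the other way, at 4.37, 6.34, 5.75 and 5.82 against 11.12, 10.45, 9.01 and 10.12 in vehicle pools. In odor pools it read 5.70, 5.55, 5.78 and 5.73 against 9.82, 11.28, 8.66 and 10.28. The differences were -4.61 ± 0.51 and -4.32 ± 0.51 (adjusted p = 5.1e-06 and 1.1e-05, limma). No array titled GFP- was above background for Olfr202. Olfr202 was thus at least 7.97-fold higher in vehicle titled GFP+ and at least 6.81-fold in odor titled GFP+. Olfr203, the next gene, was again higher in titled GFP-, by 2.34 ± 0.28 and 2.35 ± 0.28, and at least 3.49-fold and 3.07-fold.

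Other low members of chromosome 16 were few. Olfr19, which stands alone, read 5.94, 6.80, 5.51 and 7.86 in vehicle titled GFP- and 11.32, 11.37, 9.97 and 12.91 in titled GFP+. The odor pools gave 6.51, 6.60, 6.30 and 6.61 against 10.36, 11.47, 10.88 and 12.42. The fractions did not overlap, with differences of -4.86 ± 0.56 and -4.78 ± 0.56 (adjusted p = 8.9e-06 and 1.2e-05, limma), and in odor pools it was at least 16.5-fold higher in titled GFP+. In MOR184, Olfr195 was lower, at -2.65 ± 0.32 and -2.25 ± 0.32, and Olfr180, at -2.81 ± 0.58 and -2.09 ± 0.58. The odor call of Olfr180 was lost without odor replicate 1, 2 or 3 (highest adjusted p = 0.085, limma). Olfr161, the first receptor of the chromosome, was above background on no array.

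On chromosome 19 the receptors are given by subfamily in gene order, and differences between stretches were not tested. At the start of the cluster, 2 of the 4 MOR266 receptors Olfr1417 to Olfr1420 were higher in vehicle pools and 3 in odor pools, and none was lower. Olfr1419 was the highest of them, by 2.33 ± 0.34 and 3.15 ± 0.34, and in odor pools at least 3.86-fold. The vehicle call of Olfr1417, at 1.25 ± 0.36, was lost without vehicle replicate 1, 2 or 4 (highest adjusted p = 0.20, limma). Next came 6 MOR239 receptors, of which 4 were lower in both comparisons and none higher, with medians of -2.20 and -2.20. Olfr1424, Olfr1425, Olfr1426 and Olfr1428 had vehicle differences of -2.68, -2.26, -2.60 and -2.13 (SE 0.51, 0.44, 0.44 and 0.44). Olfr1423, whose mean signal was 13.14, and Olfr1427 of that subfamily did not pass, at 0.46 ± 0.25 and 0.12 ± 0.29.

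In MOR214, 2 of 6 receptors were lower and none higher. Olfr1437 read 6.36, 4.46, 6.08 and 5.71 in vehicle titled GFP- and 11.65, 10.38, 11.41 and 11.23 in titled GFP+. Its odor pools read 4.77, 5.22, 7.09 and 6.10 against 10.13, 10.33, 11.95 and 11.18. It was below background on every array titled GFP- and above it on every array titled GFP+, so that it was at least 15.8-fold and 12.6-fold higher in titled GFP+. The fitted differences were -5.51 ± 0.52 and -5.11 ± 0.52 (adjusted p = 8.1e-07 and 2.0e-06, limma). Olfr1434 read 4.82, 4.66, 5.21 and 4.23 against 9.81, 9.02, 8.28 and 8.75 in vehicle pools. In odor pools it read 4.70, 4.80, 4.72 and 5.10 against 9.12, 9.20, 9.31 and 9.77. It too was above background only in titled GFP+, at least 3.44-fold and 4.32-fold higher, with differences of -4.24 ± 0.27 and -4.52 ± 0.27 (adjusted p = 1.2e-08 and 6.4e-09, limma). These are the pair whose promoters are printed above.

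Olfr235, a receptor known for its response to musk odorants, belongs to the same subfamily and did not pass. It read 11.67, 9.66, 11.75 and 11.25 in vehicle titled GFP- against 11.95, 12.21, 11.92 and 12.74, and 10.53, 8.35, 12.32 and 11.01 in odor titled GFP- against 11.49, 11.91, 12.63 and 12.44. The titled GFP- arrays were lower in all 8 pools but spread widely, and the differences of -1.12 ± 0.62 and -1.56 ± 0.62 gave adjusted p = 0.24 and 0.084 (limma). Its mean over the 16 arrays was 11.49.

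The 2 receptors of MOR215 lie beside these. Olfr76 was higher by 1.13 ± 0.20 and 0.85 ± 0.20, calls that were lost with arrays centred on the receptor median (adjusted p = 0.056 and 0.40, limma), and Olfr1441 was above background on no array.

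MOR202 is the largest subfamily, with 30 receptors in 1 stretch from Olfr1442 to Olfr1489. Of these, 12 were higher, 7 lower and 11 passed in neither direction, in each comparison. The calls were of the same receptors except Olfr1459, higher only in vehicle pools, and Olfr1444, higher only in odor pools. Both calls of Olfr1487 were lost with arrays centred on the receptor median (adjusted p = 0.13 and 0.23, limma). The lowest and several of the highest members of all 95 lay here side by side. Olfr1447 had the lowest fitted difference, at 4.99, 5.15, 6.89 and 7.07 in vehicle titled GFP- against 13.39, 12.63, 13.46 and 13.99 in titled GFP+. The odor pools gave 5.79, 4.86, 5.19 and 7.83 against 12.25, 13.31, 12.78 and 14.54. The fractions were far apart in every pool, with fitted differences of -7.34 ± 0.64 and -7.30 ± 0.64 (adjusted p = 3.9e-07 and 4.3e-07, limma), and in vehicle pools it was at least 72.8-fold higher in titled GFP+. Olfr1446, just before it, read 4.53, 4.39, 4.16 and 5.70 against 11.60, 11.12, 10.86 and 11.83 in vehicle pools. Its odor pools read 4.18, 3.15, 5.44 and 5.43 against 10.01, 11.09, 10.10 and 11.80. Its differences were -6.66 ± 0.50 and -6.20 ± 0.50, at least 18.0-fold and 11.4-fold.

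Olfr1448, the next gene after Olfr1447, ran the other way. It read 12.29, 12.48, 12.12 and 12.84 in vehicle titled GFP- against 9.02, 9.67, 9.32 and 9.36 in titled GFP+, and 11.24, 12.56, 11.83 and 12.19 against 8.14, 9.20, 8.87 and 9.07 in odor pools. It was above background on all 16 arrays and higher in titled GFP- in each pool, by 3.09 ± 0.27 and 3.13 ± 0.27 (adjusted p = 4.7e-07 and 4.2e-07, limma). Olfr1449 followed it, above background on no array titled GFP+ and at least 2.42-fold and 1.69-fold higher in titled GFP-, where 4 vehicle and 3 odor arrays were above it, with fitted differences of 2.18 ± 0.47 and 3.18 ± 0.47. After it Olfr1450 was lower again and above background on no array titled GFP-. It was at least 1.88-fold higher in vehicle titled GFP+, with no bound in odor pools, and its fitted differences were -3.95 ± 0.42 and -2.79 ± 0.42. Olfr1451 was lower too, at -3.78 ± 0.51 and -3.54 ± 0.51, in odor pools at least 4.83-fold. Olfr1445, on the other side of Olfr1446, was called higher, at 1.95 ± 0.28 and 1.39 ± 0.28, but only 2 of its 16 arrays were above background and it has no bound.

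**Figure D3:**
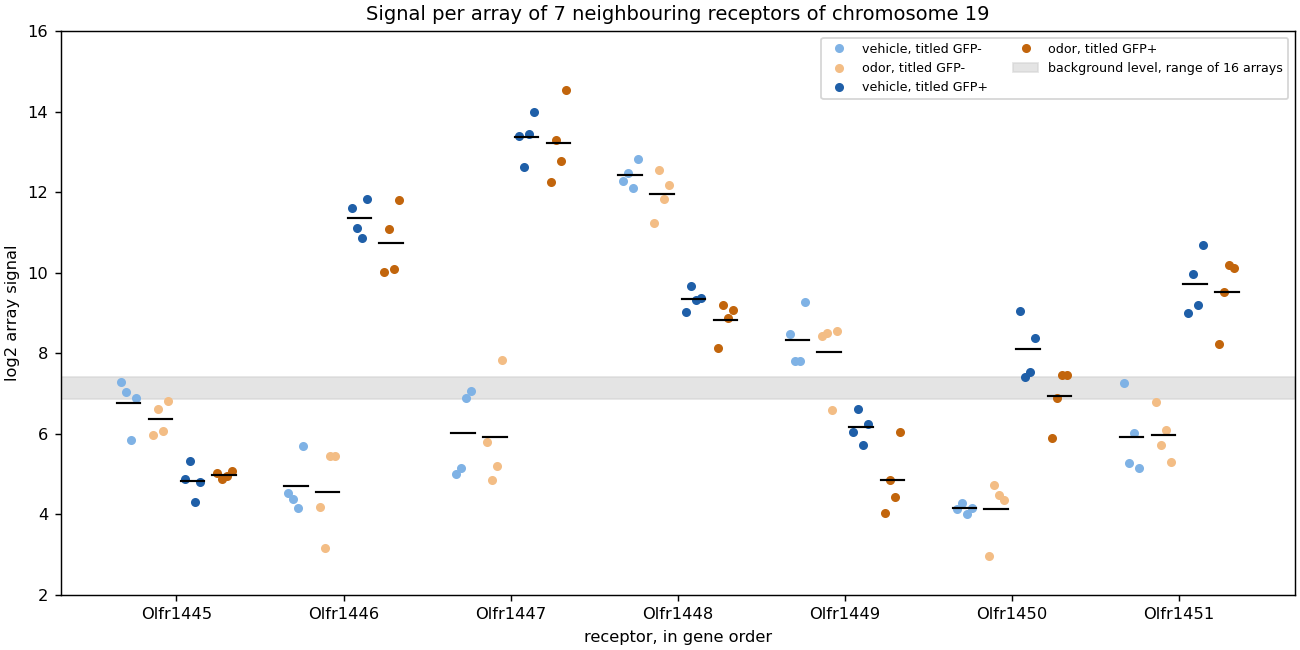
Log2 array signal (y axis) of 7 neighbouring receptors of subfamily MOR202 on chromosome 19 (x axis, gene order), with 1 point per array, black bars for group means of 4 arrays, and the grey band for the background level over the 16 arrays, 6.87 to 7.41. Olfr1446 and Olfr1447 lie far above the band in titled GFP+ and mostly below it in titled GFP-, while Olfr1448 lies above the band in all groups and is higher in titled GFP-.

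At the start of the stretch Olfr1442 was lower, at -3.92 ± 0.45 and -3.91 ± 0.45, and at least 5.81-fold and 3.75-fold higher in titled GFP+. Next to it Olfr1443, whose promoter is printed above, read 10.49, 10.49, 11.82 and 10.08 in vehicle titled GFP- against 8.15, 8.04, 8.87 and 8.19, and 10.51, 10.02, 10.51 and 10.07 in odor titled GFP- against 8.54, 7.72, 7.35 and 7.88. It was higher in each pool, by 2.41 ± 0.32 and 2.40 ± 0.32.

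The rest of the MOR202 stretch held both directions. Olfr1477 and Olfr1489 passed as lower in both comparisons, with fitted vehicle differences of -2.65 and -3.26. Olfr1463, Olfr1467 and Olfr1469 were higher in titled GFP-. Olfr1463 read 13.14, 12.79, 12.46 and 12.81 in vehicle titled GFP- against 9.77, 8.93, 9.71 and 9.42 in titled GFP+, and 12.85, 13.36, 12.80 and 12.75 against 9.20, 9.50, 8.91 and 9.90 in odor pools. Its arrays were close together within each group, and it differed by 3.34 ± 0.23 and 3.57 ± 0.23 (adjusted p = 2.8e-08 and 1.6e-08, limma). Olfr1467 was higher by 2.73 ± 0.25 and 3.29 ± 0.25, and Olfr1469 by 2.79 ± 0.29 and 2.98 ± 0.29, in odor pools at least 3.48-fold. Of the members of this subfamily that passed in neither direction, Olfr1453, Olfr1457, Olfr1462, Olfr1465 and Olfr1475 were above background on no array.

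MOR266 receptors occur again near the end of the cluster, and there all 4 were lower in both comparisons. The medians of their fitted differences were -3.81 and -3.59, where those of the 4 at the front were 0.81 and 1.41. Olfr1495 read 7.14, 4.88, 5.67 and 5.68 in vehicle titled GFP- against 11.80, 11.43, 11.32 and 12.27 in titled GFP+. In odor pools it read 7.35, 3.72, 5.49 and 5.75 against 10.92, 11.05, 11.43 and 11.74. The fractions did not overlap, with differences of -5.86 ± 0.57 and -5.71 ± 0.57 (adjusted p = 1.4e-06 and 1.9e-06, limma), and in odor pools it was at least 16.5-fold higher in titled GFP+. Olfr1494, above background on all 16 arrays, was lower, at -3.74 ± 0.32 and -3.15 ± 0.32. Olfr1490 was above background on no array titled GFP-, and was at least 2.62-fold and 2.73-fold higher in titled GFP+, with fitted differences of -3.88 ± 0.33 and -4.03 ± 0.33. Olfr1491 was likewise never above it in titled GFP-, and is given by its fitted differences only, -3.04 ± 0.34 and -2.80 ± 0.34. The split of this subfamily by position was chosen after the values were seen and was not tested.

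The last stretch held mostly MOR212 and MOR211. All 4 MOR212 receptors, Olfr1497, Olfr1500, Olfr1501 and Olfr1504, were higher, with medians of 2.50 and 2.68. Olfr1497 read 9.08, 9.82, 9.42 and 9.58 in vehicle titled GFP- against 6.28, 7.50, 5.48 and 5.44, and 7.60, 10.34, 9.63 and 9.54 in odor titled GFP- against 4.82, 6.77, 6.65 and 5.54. The groups did not overlap, with differences of 3.30 ± 0.56 and 3.33 ± 0.56 (adjusted p = 4.4e-04 and 4.2e-04, limma), and in odor pools it was at least 4.04-fold higher in titled GFP-. The vehicle call of Olfr1500, at 2.00 ± 0.56, was lost without vehicle replicate 1, 2 or 3 (highest adjusted p = 0.071, limma). Olfr1496, of MOR127, did not pass, at -0.81 ± 0.55 and 0.07 ± 0.55. Of 3 MOR211 receptors that alternate with them, Olfr1505 was higher, Olfr1499 lower and Olfr1502 passed in neither direction. Olfr1499 was above background on no array in any group, so its difference of -2.18 ± 0.43 has no fold.

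**Figure D4:**
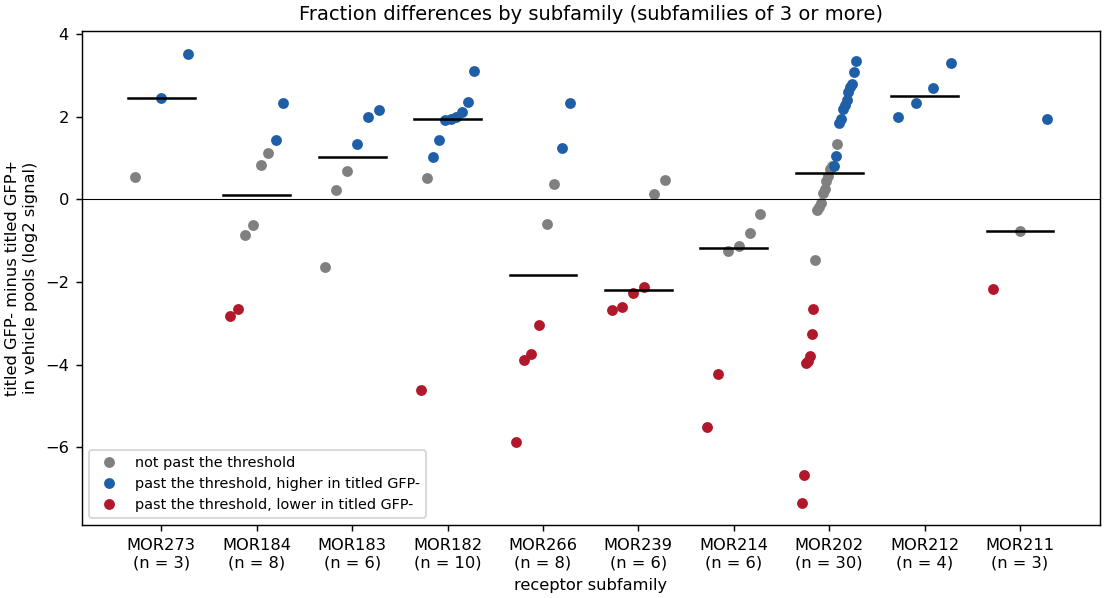
Fraction difference in vehicle pools (titled GFP- minus titled GFP+, log2 signal, y axis) of each receptor in the subfamilies with 3 or more members (x axis), with black bars for subfamily medians; blue passed the test as higher, red as lower in titled GFP-, and grey did not pass. The 4 MOR212 receptors are all blue, MOR239 and MOR214 hold no blue point, and MOR202 spans the range from -7.34 to 3.34.

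There were 90 pairs of adjacent members within a cluster. In vehicle pools both genes passed in 39 of them, 25 in the same direction and 14 in opposite directions. The agreement expected from 40 higher and 22 lower calls alone was not computed. Of the 25 pairs within 1 subfamily in which both passed, 16 had the same direction, and of the 14 from different subfamilies 9. In odor pools both passed in 44 pairs, 29 in the same direction and 15 in opposite directions. Among the opposite pairs in vehicle pools were Olfr1447 and Olfr1448, Olfr1445 and Olfr1446, Olfr201 and Olfr202, and Olfr202 and Olfr203. Each of these 4 pairs lies within 1 subfamily, and how far probes of related receptors share signal was not tested.

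A list of genes that a neuron uses to express its receptor and signal through it held 21 features for 20 genes. Of these, 1 was higher and 1 lower in vehicle pools, where 16.9% of all tested features passed, and 3 were higher and 1 lower in odor pools, where 22.2% passed. The list's medians were 0.15 and 0.16, beside 0.13 and 0.14 for all tested features. Ano2, the calcium-activated chloride channel of the cilia, was higher by 0.39 ± 0.10 and 0.41 ± 0.10 (adjusted p = 0.014 and 0.010, limma). In odor pools Adcy3, the adenylyl cyclase, was higher by 0.30 ± 0.10 (adjusted p = 0.040) and Rtp2, which helps receptors reach the membrane, by 0.37 ± 0.13 (adjusted p = 0.045). Centring arrays on the receptor median moved the odor median of all tested features from 0.14 to -0.33. The odor differences of Ano2, Adcy3 and Rtp2 were smaller than that shift, so their direction depends on the scaling. Lbr, a nuclear envelope protein, was lower, at -1.67 ± 0.32 and -1.77 ± 0.32. Lhx2, Ldb1, Ebf1 and Emx2, transcriptional regulators of receptor choice, had differences between -0.14 and 0.15 that did not pass. All 5 activity-dependent neuron genes were higher in titled GFP- in both comparisons, with medians of 1.23 and 1.31.

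The second question was whether the odorant mixture changed these receptors. No member passed in odor against vehicle within titled GFP-, within titled GFP+ or in the difference of the fraction differences (0 of 95 each by limma). The background was 0% of all tested features in all 3 comparisons. Differences within titled GFP- were below 0 for 62 of 95 members, with a median of -0.09. They were below 0 for 604 of 985 other receptors and 9937 of 19572 tested features. Within titled GFP-, 1 member had an unadjusted p under 0.05, or 1.05%, against 4.11% of all tested features and 2.54% of the other receptors. That member was Olfr1469, at -0.74 with a 95% interval from -1.36 to -0.12 (adjusted p = 0.999, limma). Its signals in odor titled GFP- were 7.99, 9.88, 9.20 and 9.19, against 9.81, 9.89, 10.04 and 9.48 in vehicle titled GFP-. The groups overlapped. The next smallest p values belonged to Olfr170 at -0.60, Olfr1484 at -0.39, Olfr1418 at 0.46 and Olfr1448 at -0.48, none of which passed.

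Within titled GFP+ the members leaned low. Of 95 differences 73 were below 0, with a median of -0.24, where the other receptors had a median of -0.22 and all tested features -0.03. The other receptors leaned low too, with 755 of 985 below 0, against 10643 of 19572 tested features. The members' median turned to 0.03 with arrays centred on their receptor median. An unadjusted p under 0.05 was reached by 8 members, all lower, or 8.42%, against 10.3% of all tested features and 4.77% of the other receptors. Of the 2016 such features 1210 were lower, and of the 47 such other receptors 46. Olfr178 had the smallest p. It read 8.93, 10.10, 9.38 and 9.76 in odor titled GFP+ against 10.13, 10.01, 10.86 and 10.43 in vehicle titled GFP+, a difference of -0.82 ± 0.24 (95% interval -1.34 to -0.30, adjusted p = 0.33, limma). The others named by smallest p were Olfr1469 at -0.93, Olfr1449 at -1.32, Olfr1450 at -1.17 and Olfr183 at -1.42, with adjusted p from 0.35 to 0.42, and Olfr1449 was above background in neither group. The receptor median of the odor titled GFP+ arrays ran from 7.94 to 8.92 and that of the vehicle titled GFP+ arrays from 8.59 to 9.18, and the part of this shift was not tested.

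**Figure D5:**
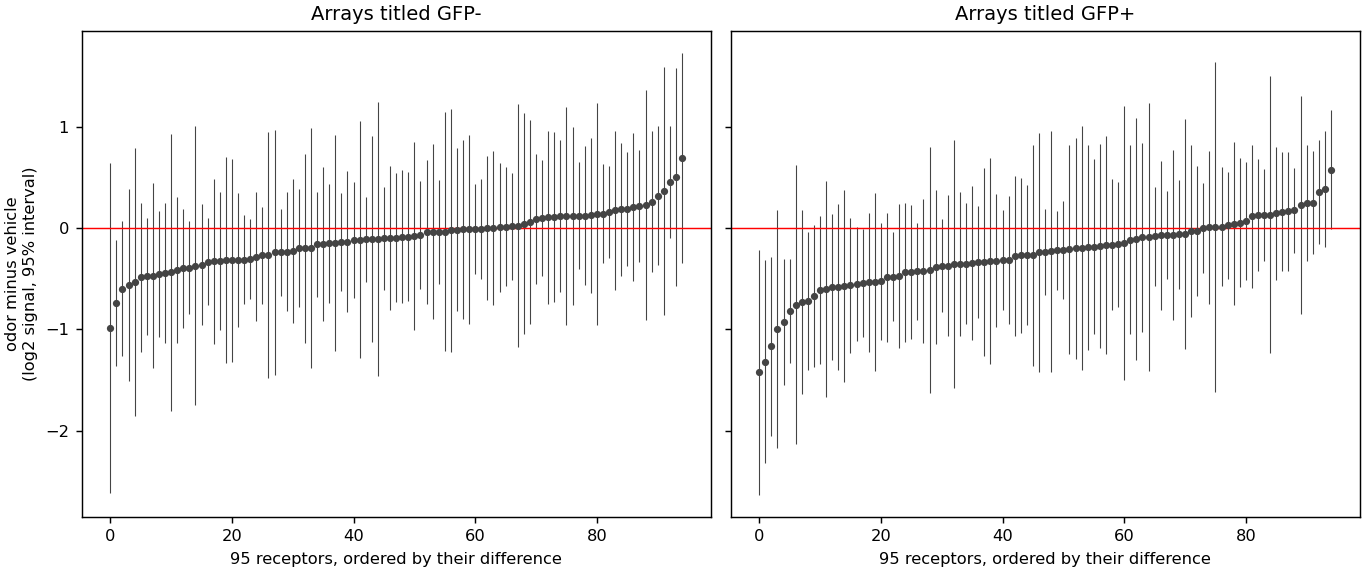
Odor minus vehicle difference (log2 signal, y axis) of the 95 receptors, ordered by size (x axis), in arrays titled GFP- (left) and titled GFP+ (right), with 95% intervals from the fit and a red line at 0. Most points in the left panel lie near 0, 73 of 95 points in the right panel lie below it, and no receptor passed the test in either.

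The difference between the odor and the vehicle fraction differences was above 0 for 66 of 95 members, with a median of 0.17, where the other receptors had 0.15 and all tested features 0.03. It was above 0 for 623 of 985 other receptors and 10746 of 19572 tested features. With arrays centred on their receptor median the members' median was -0.03. Olfr1418 was the only member with an unadjusted p under 0.05, against 3.78% of all tested features. Its fraction difference was 0.38 ± 0.26 in vehicle and 1.17 ± 0.26 in odor pools, and their difference of 0.79 had a 95% interval from 0.01 to 1.57 (adjusted p = 1.00, limma). Olfr209 at 0.74, Olfr1450 at 1.16, Olfr178 at 0.66 and Olfr204 at -0.73 came next and did not pass. The 95% intervals of the members reached a median of 0.71 log2 units to either side for odor against vehicle within a fraction, and 1.00 for the difference of fraction differences.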

How the data were processed

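Deposited log2 signals of 16 Clariom S arrays were used. Per the submitters' processing notes the authors made them with Affymetrix Expression Console, whose version, normalization and genome build are not given in the sources used here. Arrays were compared on the deposited scale. Per the labels' protocols, cRNA with biotin was made from 50 to 100 ng of RNA. Replicate arrays correlated at 0.979 to 0.995 over the 19572 features with a gene symbol.

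A limma cell-means fit over the 4 groups (limma 3.58.1, R 4.3.3, 12 residual degrees of freedom) gave 5 comparisons with moderated two-sided tests. P-values were adjusted over the 19572 features by Benjamini-Hochberg at 0.05. SE and 95% intervals come from that fit. It was tried on simulated data with independent arrays. These lacked the correlations between arrays given below, so they cannot show how the fit behaves with them. Precision is limited by the 4 arrays of a group, each a pool of 3 mice, so the spread holds differences between pools and technical error.

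Background was planned as the 95th percentile of 5222 negative controls, which lay at 9.14 to 10.88. The 95th percentile of 23 GC-graded probe sets, chosen after seeing the data, replaced it. Every bound, and every signal called above background without naming the negative controls, rests on that lower level. Bounds were not computed at the planned level, which lies above some signals that have a bound here. Olfr1434 in odor titled GFP+, for example, read 9.12 to 9.77, where the planned level was 10.28 to 10.88. A bound sets the bright group's mean against the dim group's, each dim array taken at the higher of its lowest signal above background and its own.

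Members and gene lists were chosen with earlier results of these data known. The text names the 8 highest and 8 lowest members that passed in each fraction comparison, in the others any that passed or else the 5 with the smallest p, and the 5 with the highest mean signal, with Olfr235. Protein identity between members was part of that rule and was not used here. Subfamilies, promoters, neighbours and the other members named were chosen after values were seen. Of the 95 members, 85 were in RefSeq's promoter table. Alternatives were 3 scalings, 2 filters on dim features, fits of the compared groups alone, with a pool or replicate block or with an intensity trend, and each pool left out. Fractions of 1 pool come from the same mice, and their deviations from the group means correlated at 0.0957 to 0.337. Odor and vehicle samples of the same number correlated at 0.147 to 0.547.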

Additional observations from a re-analysis of the deposited data

Results flagged for a closer look

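In 3 of the 124 groups of 4 arrays examined, 1 array stood far from the other 3, as measured by its gap to the nearest of them divided by the range of the group. Chance flags about 1 in 20 groups. All 3 are odor arrays titled GFP-. For Olfr1449 the share was 0.937, with 1 array at 6.60 and the others at 8.44 to 8.56. For Olfr204 it was 0.864, with 1 array at 8.79 and the others at 9.76 to 9.91. For Olfr1463 it was 0.842, with 1 array at 13.36 and the others at 12.75 to 12.85.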

How the results depend on the processing

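Of all calls, 55 of the 62 vehicle and 55 of the 65 odor calls were kept under every alternative in which they were tested. No member that the rule names changed direction or its side of the threshold, in the comparison that named it, in 725 recomputed values. The rule took the largest differences that passed, or the smallest p where no member passed. That choice by itself favoured stable results. With only features above the negative-control background tested, 6101 features with 44 members, 31 members passed in vehicle pools (20 higher, 11 lower) and 32 in odor pools (20 higher, 12 lower), fewer because fewer were tested. With the GC-graded background, 80 members were tested and 58 and 62 passed. The members above background on no array numbered 29 by the negative controls' 95th percentile, 5 by their median and 9 by the GC-graded probe sets. With the replicate block, 66 members passed in vehicle pools (43 higher, 23 lower) and 69 in odor pools (45 higher, 24 lower), and 0 in each of the other 3 comparisons, so the pairing ended no call. Leaving out each pool in turn gave 57 to 65 members in vehicle pools (35 to 41 higher, 22 to 24 lower) and 63 to 66 in odor pools (41 to 44 higher, 21 to 23 lower), and 0 to 0 in the other 3. Centring each array on the median of tested features moved the median of all features from 0.13 to 0.54 in vehicle and from 0.14 to 0.44 in odor pools, and 76 and 72 members passed. Centring on the receptor median moved it to -0.14 and -0.33, and 60 and 59 passed. Among all tested features the higher and lower calls in vehicle pools were 1380 and 1922 as deposited, 12456 and 1529 with the first centring and 343 and 1801 with the second. In odor pools they were 2385 and 1953, 9658 and 1534, and 341 and 2449. Signal over background limits the 9 members that no array measured above it, and the calls whose dimmer fraction was above it on none of 4 arrays, 10 of 22 lower and 6 of 40 higher in vehicle pools and 13 of 22 and 8 of 43 in odor pools.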
